A study of Mus musculus with 46 samples.

Results

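Of 81867 H3.3 peaks called in mouse induced pluripotent stem cells (iPSCs), 6283 lay on H3.3 peaks of both fibroblast libraries, D0 and MEF, and on no H3.3 peak of the ESD3 embryonic stem cell line. These regions were selected on the peak lists of those 4 libraries, by an overlap of at least 1 bp, and made up 7.67% of the iPSC list (95% Wilson interval 7.49% to 7.86%). They are called ESD3-absent regions here. A further 7962 iPSC peaks lay on D0 and MEF peaks and also on an ESD3 peak, and these ESD3-present regions served as the main comparison. The mirror set, ESD3 peaks on D0 and MEF peaks with no iPSC peak, counted 2005 of 52506 peaks.

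The study profiled H3.3, H3K4me3 and H3K36me3 by ChIP-Seq while mouse embryonic fibroblasts (MEFs), carrying GFP behind the endogenous Oct4 gene, were turned into iPSCs with retroviruses carrying Oct4, Sox2, Klf4 and c-Myc. D0 was the starting population and D3 was unsorted at day 3. The successful route consisted of D6T-, D9T-, D12S+ and D16S+, the Thy1-negative or SSEA-1-positive fractions of days 6 to 16, and the unsuccessful route of the opposite fractions D6T+, D9T+, D12S- and D16S-. In a separate experiment, fibroblasts cleared of cells with hematopoietic surface markers (MEF) received retroviral Scl, Lmo2, Runx1 and Bmi1, were grown with inactivated OP9 stromal cells, and were taken at day 4 (D4) or at the end as cKit+ and cKit- cells. There was 1 library in each group and therefore no test between groups, and all intervals cover counting error only. Depth per H3.3 library ran from 18745955 tags in D16S+ to 91754593 tags in cKit+, and H3.3 peaks from 25637 in cKit- to 108179 in D4. A region without a peak had not passed the calling limits at the depth of that library, which does not show that H3.3 was missing from it.

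H3.3 is the replacement form of histone H3, which chaperones place into chromatin outside DNA replication, at active promoters, enhancers and transcribed gene bodies. H3K4me3 marks active promoters and H3K36me3 marks transcribed gene bodies. Fibroblasts are known for genes of the extracellular matrix and of the contractile cytoskeleton, which pluripotent cells express weakly or not at all, and AP-1 factors (Jun, Fos and relatives) are known to bind many fibroblast enhancers.

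Intron windows from 5 genes of the fibroblast lists are shown because each of these genes held 11 or 12 ESD3-absent regions and because each window carried the AP-1 letters TGANTCA, which were more frequent in the ESD3-absent regions than in the iPSC list as a whole. The sequences are 120 bp of the plus strand of mm9 (NCBIM37), capitals mark TGANTCA, and none of the windows touched an annotated exon.
Actn1 chr12:81341147-81341266: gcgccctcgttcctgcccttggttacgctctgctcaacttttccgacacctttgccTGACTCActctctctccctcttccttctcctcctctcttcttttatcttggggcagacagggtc
Lpp chr16:24566386-24566505: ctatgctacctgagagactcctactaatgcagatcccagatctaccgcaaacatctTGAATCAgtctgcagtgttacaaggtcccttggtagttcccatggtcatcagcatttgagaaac
Cald1 chr6:34658225-34658344: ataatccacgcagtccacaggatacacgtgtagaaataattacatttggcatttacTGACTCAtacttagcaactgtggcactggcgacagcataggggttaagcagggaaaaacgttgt
Tead1 chr7:120002151-120002270: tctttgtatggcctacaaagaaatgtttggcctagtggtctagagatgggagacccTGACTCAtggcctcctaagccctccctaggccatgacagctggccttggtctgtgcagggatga
Fn1 chr1:71634659-71634778: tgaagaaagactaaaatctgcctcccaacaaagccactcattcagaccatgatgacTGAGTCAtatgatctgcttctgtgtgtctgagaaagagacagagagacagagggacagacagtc
Actn1 encodes alpha-actinin, an actin cross-linker, Lpp encodes a focal adhesion protein, Cald1 encodes caldesmon, which binds actin and tropomyosin, Tead1 encodes the DNA-binding partner of Yap1, and Fn1 encodes fibronectin.

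Genes that define the cell types were checked first. The gene body of Col1a1, a fibrillar collagen chain, was covered by H3.3 peaks over 100% of its length in D0, 97.2% in MEF, 14.6% in iPSCs and 0% in ESD3. That of Nanog, a pluripotency factor, was covered over 0% in D0 and MEF and over 100% in iPSCs and ESD3. Pou5f1 was covered over 0% in D0 and MEF, 100% in iPSCs and 70.1% in ESD3. The fibroblast and pluripotent libraries were thus apart at these genes as their labels say, and Col1a1 had some H3.3 peaks in iPSCs.

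ESD3-absent regions were shorter and of lower score than ESD3-present regions, and slightly longer and of higher score than the iPSC list. Their median length was 889 bp, against 2388 bp for ESD3-present regions and 782 bp for all iPSC peaks, and 26% of them had a length of 500 bp, the usual minimum, against 5.43% and 31.9%. Their median score, the tag count of a peak at a common library size, was 10.9, against 30.4 for ESD3-present regions and 9.6 for all iPSC peaks. The median fold over input was 3.21 in both sets and 3.25 over all iPSC peaks. These values belong to the lists that chose the regions and are given as a description. Near the limits of the rule, 230 ESD3-absent regions (3.66%) shared at most 50 bp with their D0 or MEF peak, 143 (2.28%) had an ESD3 peak within 100 bp, and 91 ESD3-present regions (1.14%) shared at most 50 bp with ESD3.

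The number of regions depended on the number of peaks per library. The iPSC list was 1.56 times as long as that of ESD3 and came from 41157917 tags against 21617385 tags. With the whole lists, ESD3-absent regions outnumbered the mirror set 3.13 times. With the 34062 highest-scoring peaks of every library (the length of the D16S+ list, with the shorter cKit lists kept whole), 2447 ESD3-absent and 1457 mirror regions were found, a ratio of 1.68. The ratio was 1.33 with the top 10000 peaks of each list and 1.68 with the top 50000. With peaks ranked by score per kb in place of score, it was 1.1 (1718 against 1560 regions). Most of the excess over the mirror set was thus not present at equal peak number, and nearly none of it under the ranking by density.

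**Figure D1:**
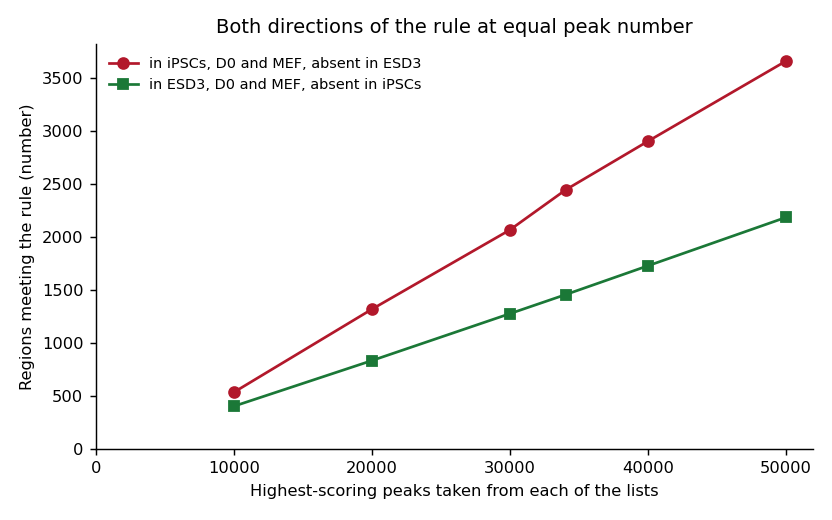
Number of regions meeting the rule (vertical axis) when the same number of highest-scoring peaks (horizontal axis) was taken from the iPSC, ESD3, D0 and MEF lists, for ESD3-absent regions (circles) and for the mirror set (squares). The counts were 534 and 402 at 10000 peaks and 3661 and 2185 at 50000 peaks.

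Many ESD3-absent regions lay close to an ESD3 peak. The median distance from an ESD3-absent region to the nearest ESD3 peak was 3145 bp, against 5278 bp for all iPSC peaks without an ESD3 peak. An ESD3 peak lay within 1 kb of 22.7% of the regions, within 10 kb of 77%, and within 50 kb of 96%. The regions more than 10 kb from any ESD3 peak numbered 1448.

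On the successful route, the share of ESD3-absent regions with an H3.3 peak was lowest in D16S+. The share overlapping an H3.3 peak started at 68.1% (67% to 69.3%) for D3, stood at 73.7% for D6T-, 65.3% for D9T- and 44.5% for D12S+, and ended at 26.8% (25.7% to 27.9%) for D16S+. Over all iPSC peaks the same shares, in that order, were 29.7%, 39.7%, 35.8%, 30.3% and 25.2%. In D16S+ the ESD3-absent regions were thus marked at 1.06 times the background share, while in D3 they were marked at 2.29 times. Since the rule already asks for peaks in D0 and MEF, a high share in cells close to fibroblasts is partly given by the choice, and the ESD3-present regions, chosen with the same fibroblast peaks, are the closer comparison. Their shares were 84.4%, 89.2%, 86.3%, 78.7% and 63.6%. ESD3-present regions were chosen for an ESD3 peak, so a higher share in cells close to pluripotent ones is partly given by the choice as well.

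In the unsuccessful fractions most of the regions had a peak. D6T+ had 66.5% (26.3% of all iPSC peaks), D9T+ 65.3% (29.8%), D12S- 82.1% (44.7%) and D16S- 66.2% (32.8%). D16S- and D16S+ thus differed by 66.2% to 26.8% at the ESD3-absent regions and by 86.6% to 63.6% at the ESD3-present regions. Of the ESD3-absent regions, 1264 (20.1%) had peaks in both D12S- and D16S- and in neither D12S+ nor D16S+, whereas 16 (0.255%) showed the opposite pattern. Among all iPSC peaks these patterns were at 7.67% and 2.72%. The SSEA-1+ lists were shorter (45922 and 34062 peaks, against 87536 in D12S- and 65454 in D16S-). At 34062 peaks per H3.3 library the D16S- and D16S+ shares were 72.6% and 45.4% for ESD3-absent regions, 88.2% and 76.1% for ESD3-present regions, and 38.3% and 46.5% for all iPSC peaks. The D12S+ share of the ESD3-absent regions was then 60.5% (45.5% of all iPSC peaks), and 54.7% with peaks ranked by score per kb, so that in D12S+ a majority had a peak at equal peak number. At 34062 peaks the gap between D16S- and D16S+ was wider at the ESD3-absent regions than at the ESD3-present ones too, and D16S+ was again close to its background. The sets were split by an ESD3 peak, so a wider gap at the ESD3-absent regions is partly given by the choice. Equal peak number does not remove this.

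Peak length moved with these shares. When the ESD3-present regions were weighted to the lengths of the ESD3-absent ones (a comparison added after the values were seen, as were the top 10000 to 50000 peaks), their share was 76% in D3, 62.3% in D12S+, 42.3% in D16S+ and 76.2% in D16S-. ESD3-absent regions then stood 7.88 percentage points lower in D3, 17.8 lower in D12S+, 15.5 lower in D16S+ and 9.96 lower in D16S-. The differences in D12S+ and D16S+ were the widest of the 12 libraries. Because the sets were split by an ESD3 peak, a lower ESD3-absent share in these SSEA-1+ libraries is partly given by the choice. How far the choice set these differences was not tested.

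**Figure D2:**
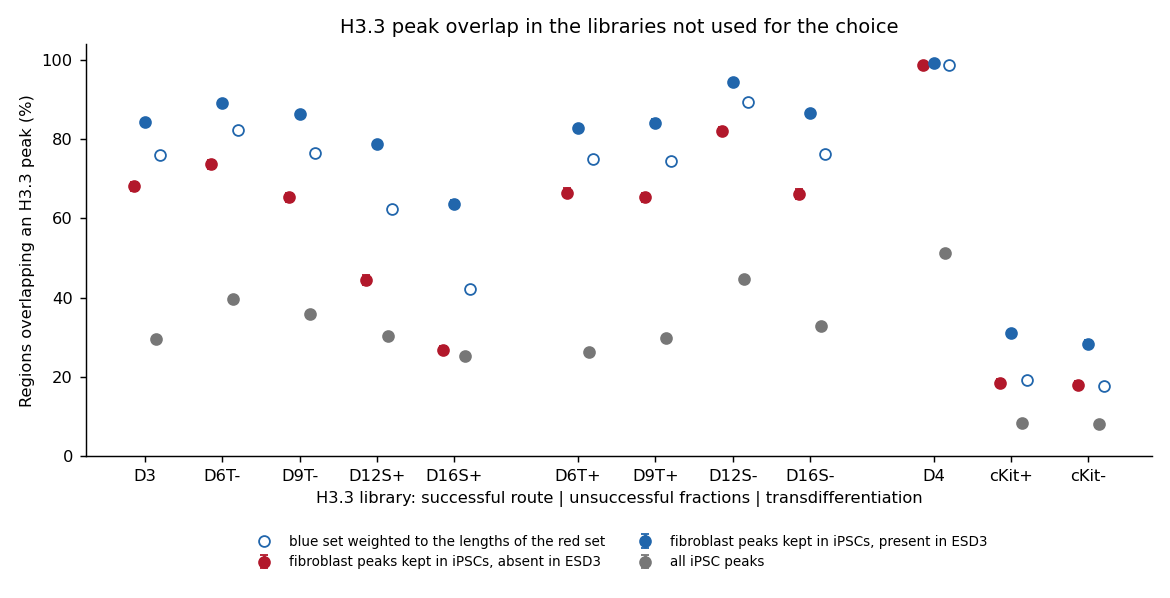
Percent of regions overlapping an H3.3 peak (vertical axis) in the 12 H3.3 libraries that did not enter the choice, for ESD3-absent regions (red), ESD3-present regions (blue), ESD3-present regions weighted to the lengths of the ESD3-absent ones (open blue) and all iPSC peaks (grey), with 95% Wilson intervals on the filled points. The red points lie at 44.5% in D12S+ and 26.8% in D16S+ against 82.1% in D12S- and 66.2% in D16S-.

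By number of libraries, 870 ESD3-absent regions (13.8%) had an H3.3 peak in all 5 libraries from D3 to D16S+ and 599 (9.53%) in none of them. For ESD3-present regions the corresponding shares were 50.2% and 2.12%, and for all iPSC peaks 8.64% and 38.5%. Another 809 regions (12.9%, against 4.32% of all iPSC peaks) had peaks in D3, D6T- and D9T-, none in D12S+ and D16S+, and a peak again in iPSCs. A continuous peak through the successful route was therefore found for a minority of the ESD3-absent regions at the depth of these libraries. In the 4 unsuccessful fractions, 2651 regions (42.2%) had a peak in every one, against 15.8% of all iPSC peaks and 69.8% of ESD3-present regions.

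On the hematopoietic route, 98.6% of the ESD3-absent regions had an H3.3 peak in D4 (51.3% of all iPSC peaks), whose list covered the most genome. In cKit+ cells 18.5% had a peak (8.53% of all iPSC peaks) and in cKit- cells 17.9% (8.07%). The peaks of these cKit libraries held 1.65% and 2.31% of their tags, the lowest shares among the H3.3 libraries. At equal length the ESD3-present regions were at 19.3% and 17.7%, within 1 percentage point of the ESD3-absent ones. In all, 371 regions (5.9%) had peaks in both cKit fractions, against 2.89% of all iPSC peaks and 15.3% of ESD3-present regions. Peaks in cKit+ and in all 5 libraries from D3 to D16S+ were found at 254 regions (4.04%), against 2.92% and 21.2%.

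H3K4me3 lay on 56.6% of the ESD3-absent regions in D0, the starting fibroblasts, against 25.3% of all iPSC peaks. The later shares, each followed by that of all iPSC peaks, were 45.8% and 22.2% for D3, 50.6% and 27% for D6T-, 46% and 24.6% for D9T-, 39.4% and 22.5% for D12S+, 24% and 13.5% for D16S+, and 43% and 28.9% for iPSCs. Of the 3555 regions with H3K4me3 in D0, 2450 (68.9%, 67.4% to 70.4%) also had it in iPSCs, and 250 regions had it in iPSCs and not in D0. Of the peaks with H3K4me3 in D0, 81% had it in iPSCs among ESD3-present regions and 75.8% among all iPSC peaks, so the share of the ESD3-absent regions was below both. At equal length the iPSC share of ESD3-present regions was 43%, the same as that of the ESD3-absent regions.

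H3K36me3 was less frequent and close to background. The same pairs of shares were 26.4% and 23% for D0, 19.4% and 16.2% for D3, 13.8% and 11.7% for D6T-, 26.1% and 24.8% for D9T-, 3.49% and 3.18% for D12S+, 3.84% and 4.38% for D16S+, and 12% and 9.98% for iPSCs. Of 1661 regions with H3K36me3 in D0, 539 (32.5%) had it in iPSCs, against 30.9% over all iPSC peaks and 49.9% for ESD3-present regions. The H3K36me3 lists of D12S+, D16S+ and iPSCs were the shortest (12322 to 26697 peaks) and held 1.07% to 2.88% of their tags in peaks, and how far this set the low shares there was not tested. Neither mark was called in iPSCs at 3072 regions (48.9%), against 64.4% of all iPSC peaks and 28.9% of the longer ESD3-present regions. At equal length the ESD3-present regions had H3K36me3 in iPSCs at 12.5%.

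**Figure D3:**
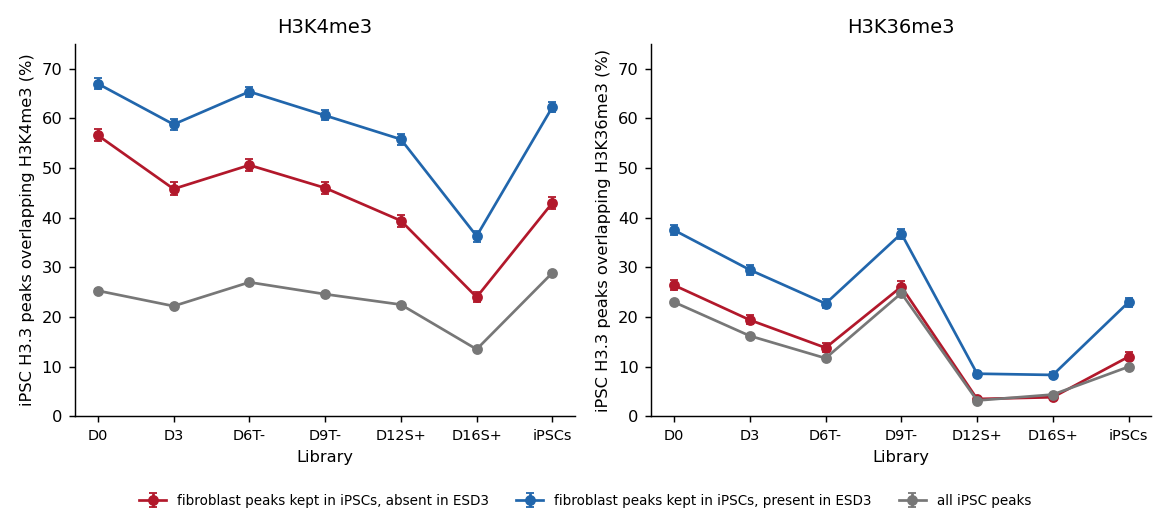
Percent of iPSC H3.3 peaks overlapping an H3K4me3 peak (left) or an H3K36me3 peak (right) in each of 7 libraries, for ESD3-absent regions (red), ESD3-present regions (blue) and all iPSC peaks (grey), with 95% Wilson intervals. For H3K4me3 the red points run from 56.6% in D0 to 24% in D16S+ and 43% in iPSCs, and for H3K36me3 they stay within 4 percentage points of the grey ones.

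By position, 48.2% of the ESD3-absent regions had their midpoint in an intron, 22.4% between genes, 16.4% at a promoter (1000 bp before to 100 bp after a transcription start site), 6.88% at a transcript end and 6.22% in an exon. The promoter share was 8.15% for all iPSC peaks and 16.9% for ESD3-present regions and thus alike in both sets on fibroblast peaks. At promoters H3K4me3 was on 90.3% of 1028 regions in D0 and 84.1% in iPSCs. The promoter shares were 77.1% and 73.6% for all iPSC peaks and 93.5% and 89.3% for ESD3-present regions. Between genes it was on 53.5% of ESD3-absent regions in D0 and 32.5% in iPSCs, and in introns on 50.4% and 35.7%. For all iPSC peaks these were 16.5% and 21.5% between genes, and 23.2% and 26.7% in introns. For ESD3-present regions they were 68% and 59.3%, and 61.7% and 56.7%. In all, 13 regions (0.207%) lay on chromosome X, against 0.958% of all iPSC peaks, and the share was alike in ESD3-present regions (0.201%) and in the mirror set (0.15%).

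AP-1 letters, in the looser form TGANTCA, were more frequent in the ESD3-absent regions than in the iPSC list. The stricter site TGA(C/G)TCA was not counted alone. In 500 bp windows of regions in introns or between genes, TGANTCA (either strand) was found in 910 of 4428 ESD3-absent regions (20.6%, 19.4% to 21.8%), against 15.2% of all such iPSC peaks and 13.8% of iPSC peaks without a D0 or MEF peak. It was found in 18.8% of ESD3-present regions and in 24% of the mirror set, and among peaks of at most 1000 bp in 21.9% and 22.1% of the ESD3-absent and ESD3-present regions. Among peaks of at most 1000 bp the ESD3-absent and ESD3-present regions were thus not told apart by these letters. No weighting to equal length was made for them. They were in 19.1% of the ESD3-absent regions with a D16S+ peak and in 21% of those without, a difference within the counting intervals. The TEAD letters GGAATG were in 27.7% (26.6% of all iPSC peaks in introns or between genes), and the octamer ATGCAAAT, which Oct4 binds, was in 2.33% against 3.7%. A match of letters is a description and does not show binding.

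The regions were spread over 2753 protein-coding genes, 12.4% of the 22238 annotated, and 1997 of these held a single region. The 14 genes with 10 or more held 184 regions. Among them, Hmga2 (a DNA-bending chromatin protein of embryonic mesenchyme) held 16 of its 20 iPSC peaks as ESD3-absent regions, Mbnl2 (an RNA splicing factor) 13 of 30, Arid5b and Zfhx3 12 of 30 each, Actn1 12 of 23, Cald1 11 of 12, Fn1 11 of 18, Afap1 (an actin filament binding protein) 11 of 23, Lpp 11 of 25, Tead1 11 of 52, Dst 10 of 78 and Apbb2 10 of 39. These genes are named for their counts, after the values were seen. ESD3 had a peak inside each of them or at most 1 kb away. Gm20388, with 16 regions, is a 4435 kb gene model that spans many other genes, and its count says nothing of a single gene.

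The share of iPSC peaks that were ESD3-absent regions differed between the gene lists. In genes of the fibroblast matrix, 28 of 58 iPSC peaks were ESD3-absent regions (48.3%, 35.9% to 60.8%), in contractile and cytoskeletal genes 107 of 244 (43.9%, 37.8% to 50.1%), in fibroblast surface receptors 30 of 105 (28.6%), in mesenchymal transcription factors 25 of 117 (21.4%) and in the Hippo pathway and its targets 43 of 243 (17.7%). The same share over all gene bodies was 9.13%. It was 15.6% for TGF-beta and BMP genes, 12.9% for the MAPK cascade (17 of 40 genes held a region), 12.9% for hematopoietic genes, 23.1% (3 of 13 peaks) for AP-1 genes and 19.2% for housekeeping genes. Over all genes 12.4% held a region, but MAPK genes were longer (median 57.8 kb against 15.4 kb). Pluripotency genes were at 1.75% (4 of 229 peaks) and epithelial genes at 0.714% (1 of 140).

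Much of that order came from the fibroblast peaks that the rule asks for. Among iPSC peaks shared with D0 and MEF, the share without an ESD3 peak was 45.6% over all gene bodies, 65.1% (50.2% to 77.6%) in the matrix list, 57.2% (50.1% to 64.1%) in the contractile list, 60% in surface receptors, 53.2% in mesenchymal factors, 49.4% in the Hippo list, 50% in the MAPK list, 37% in both the TGF-beta and BMP list and the housekeeping list, 40% in the pluripotency list (4 of 10) and 7.14% in the epithelial list (1 of 14). The intervals of the matrix, contractile, surface receptor (46.2% to 72.4%) and epithelial (1.27% to 31.5%) lists left out the share over all gene bodies. The shares of 37.5% of 8 AP-1 peaks and 66.7% of 6 hematopoietic peaks had wide intervals. The lists were chosen with results of these data known, so their order is a description.

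**Figure D4:**
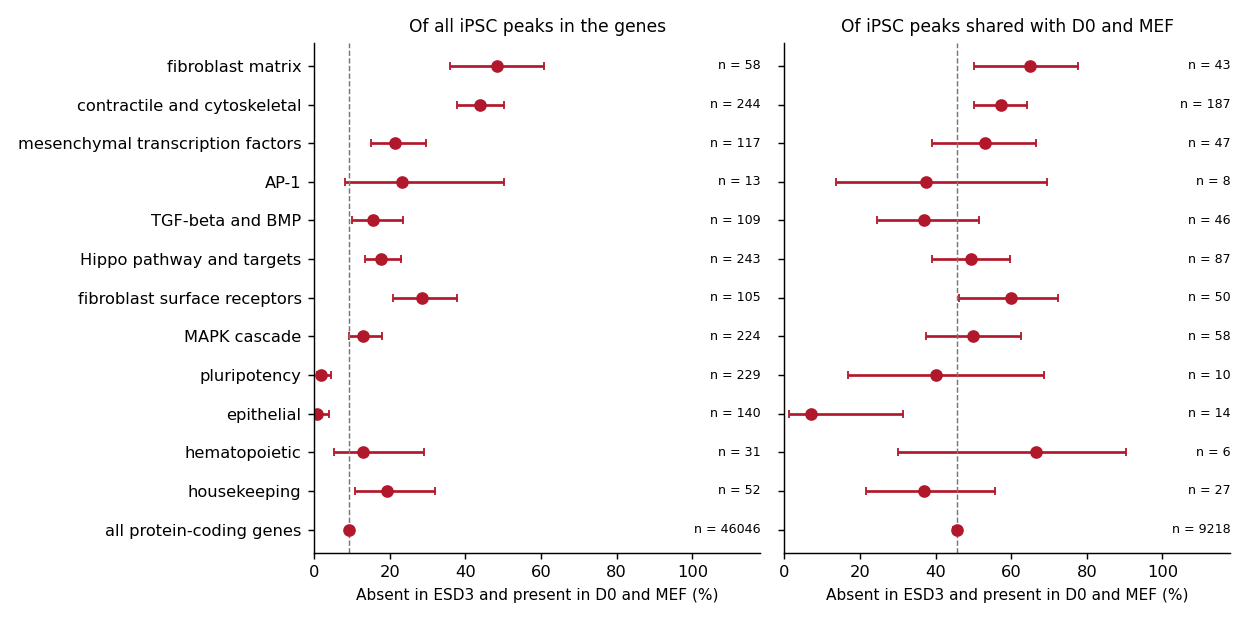
Percent of the iPSC H3.3 peaks in the genes of each list that were ESD3-absent regions, out of all iPSC peaks in those genes (left) and out of the iPSC peaks shared with D0 and MEF (right), with 95% Wilson intervals and the number of peaks. The dashed lines mark all protein-coding genes, at 9.13% on the left and 45.6% on the right.

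Among matrix genes, Col1a1 held 3 ESD3-absent regions and had no ESD3 peak up to 1 kb around it. The same was true of Col5a2, Fbln2 and Mmp14 (a membrane collagenase), with 1 region each. Col1a1 (chr11:94797538-94814356) was covered by H3.3 peaks over 54.6% of its body at D3, and then over 20.5% (D6T-), 10.1% (D9T-), 2.97% (D12S+) and 0% (D16S+), before the 14.6% of iPSCs. The opposite fractions, D6T+ (60.6%), D9T+ (49.7%), D12S- (42.2%) and D16S- (32.3%), were above the successful fraction of the same day at every day. In D4 it was 100%, in cKit+ 3.72% and in cKit- 0%. H3K36me3 covered 94.4% of Col1a1 in D0 and none of it in D12S+, D16S+ or iPSCs, and H3K4me3 covered 80.3% in D0 and 12.3% in iPSCs. The lack of an H3K36me3 peak in iPSCs was not particular to Col1a1. Nanog, Pou5f1 and the housekeeping gene Eef2 (69.8% in D0) were also at 0% there, and that list held 2.88% of its tags in peaks.

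Serpinh1, the collagen chaperone of the endoplasmic reticulum, held 2 regions. It was covered over 100% in D0, 6.76% in D16S+, 22.1% in iPSCs and 0% in ESD3, while D16S- was at 92.4%. Fn1 was at 93.4% in D0, 5.11% in D16S+, 32.7% in iPSCs and 10.4% in ESD3. All 11 of its regions overlapped D0 H3K36me3, and 1 overlapped iPSC H3K36me3.

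Among contractile genes, Cald1 was at 73.8% in D0, 1.35% in D16S+, 5.99% in iPSCs and 1.61% in ESD3, and 11 of its 12 iPSC peaks were ESD3-absent regions. Actn1 was at 97.5%, 8.11%, 35.1% and 21.8% in the same libraries, and Tpm1 (tropomyosin, 5 regions) at 96.2%, 14%, 43% and 13%. None of the 12 Actn1 regions and none of the 11 Cald1 regions had a D16S+ peak. Over the whole contractile list, 82.2% of the 107 regions had a peak in D12S-, 72.9% in D16S-, 32.7% in D12S+ and 15.9% in D16S+.

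Among surface receptors, Itga5 (the fibronectin receptor subunit, 5 regions) was covered over 96.3% in D0, 4.72% in D16S+, 31.7% in iPSCs and 12.8% in ESD3. Cyr61 and Ctgf, secreted matrix-associated proteins that Yap1 and TEAD factors induce, held 1 region each. Cyr61 was covered over 100% in D0, 71.6% in iPSCs and 0% in ESD3, and Ctgf over 100%, 73% and 0%. In D12S+ they were at 0% and 15.4%, and in D16S+ at 16.6% and 71.5%. The Cyr61 region, which runs past the end of the gene, had a score per kb of 17.1 in D0 and 19.3 in MEF, then 14.2 (D3), 16.9 (D6T-), 20.1 (D9T-), 14.9 (D12S+) and 19.3 (D16S+), and 12.3 in iPSCs, with no peak in cKit+. A peak touched the region in every library of the successful route, but in D12S+ none reached the gene body.

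Hmga2 was covered over 100% in D0, 83% in MEF, 24.6% in iPSCs and 2.99% in ESD3. By day, D6T- (84.1%) and D6T+ (91%) were close, D9T- was at 44.8% and D9T+ at 66.5%, D12S+ at 10.6% and D12S- at 77%, and D16S+ at 3.91% and D16S- at 34.8%. Of its 16 regions 13 had H3K4me3 in D0 and 4 in iPSCs, and 10 had H3K36me3 in D0 and none in iPSCs. The limit of the iPSC H3K36me3 list given with Col1a1 applies here too. The coverage of Tead1 was 58.1% in D0, 32.3% in D6T-, 5.65% in D16S+ and 43.6% in iPSCs. Arid5b was covered more in D6T- (52.9%), D9T- (51.6%) and D12S- (65.3%) than in D0 (26.9%), and was at 27.1% in iPSCs.

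**Figure D5:**
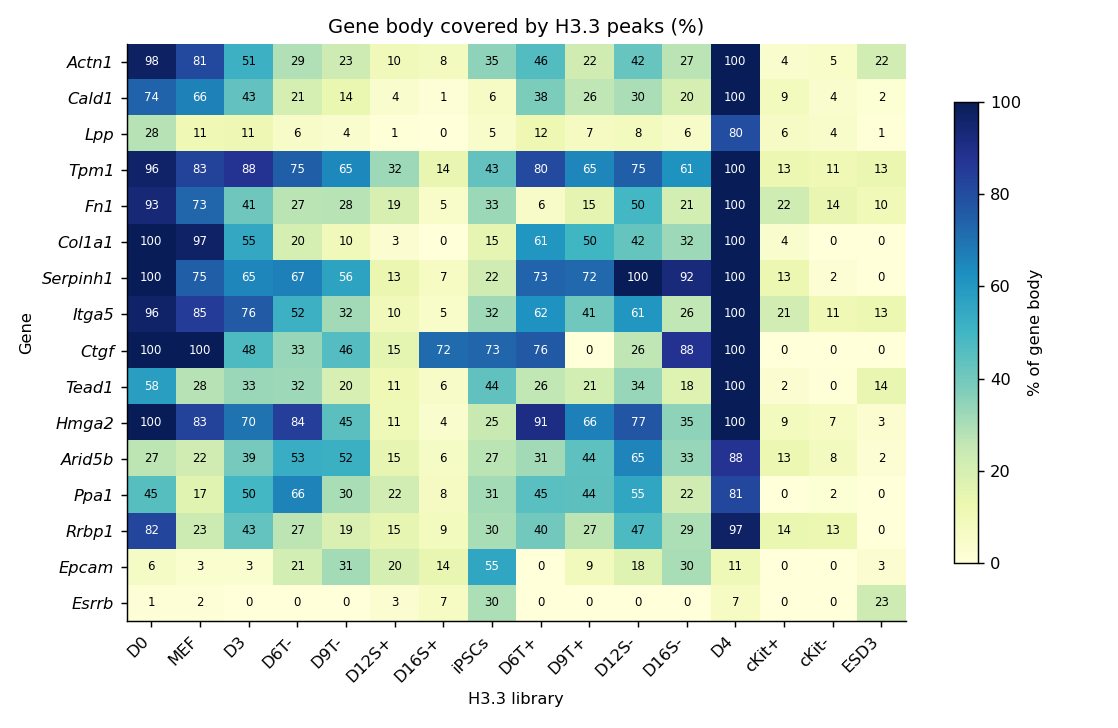
Percent of the gene body covered by H3.3 peaks (colour and rounded number) for 16 genes (rows) in the 16 H3.3 libraries (columns), with Esrrb as a pluripotency gene that held no ESD3-absent region. From Actn1 to Rrbp1 coverage in ESD3 is below that in iPSCs, and D16S+ is below iPSCs for each of them, with Ctgf the closest (71.5% and 73%). These genes hold regions chosen for an iPSC peak and no ESD3 peak, so lower coverage in ESD3 is partly given by the choice. Some genes with a region that are not drawn go the other way, among them Smad7 (36.5% in iPSCs, 55.4% in ESD3) and Anxa2 (8.23% and 13.3%).

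Outside the lists, the genes with 3 or more ESD3-absent regions and no ESD3 peak were Ppa1 (an inorganic pyrophosphatase) and Rrbp1 (a ribosome-binding protein of the endoplasmic reticulum) with 5 regions, Ccdc109a (the mitochondrial calcium channel) with 4, and Ccdc6, 1700022I11Rik, Rrp15, Yy1 (a widely expressed transcription factor) and Samd4 with 3. Ppa1 was covered over 45.4% in D0, 65.9% in D6T-, 7.62% in D16S+ and 31.1% in iPSCs. Rrbp1 was at 81.8%, 26.7%, 8.59% and 30.1%. Klf6 (a zinc finger factor, 2 regions) was the mesenchymal factor without an ESD3 peak, at 76% in D0, 80.4% in D12S+, 14.4% in D16S+ and 19.9% in iPSCs. In all, 384 of the 2753 genes with a region (13.9%) had no ESD3 peak up to 1 kb around them.

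Regions with a peak in every library from D3 to D16S+ included the longest named here. Those with the highest iPSC score among the 870, beside the regions of high input named below, were near Srpk2 and in or at Eif4b (a translation initiation factor), Atxn2l, Pawr, Morc3, Gm20388 and near Pdia4. The Eif4b region, 9.77 kb long, had a score per kb of 19.5 in D0 and 12.4 in MEF, then 18.4 (D3), 24.5 (D6T-), 19.6 (D9T-), 16.9 (D12S+) and 17.1 (D16S+), and 12.6 in iPSCs, 8.6 in cKit+ and 11.8 in cKit-. An ESD3 peak lay 147 bp away from it. The Pawr region, 7.92 kb long, ran from 14.2 in D12S+ to 20.1 in D6T- along the route and was at 12.1 in iPSCs and 10.7 in cKit+, with the nearest ESD3 peak at 23.7 kb. Eif4b, Pawr, Gm20388, Pdia4 and Gm20508 named the regions of highest iPSC score with a cKit+ peak. The Atxn2l region had no cKit+ peak and a score per kb of 12.8 in cKit-.

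By the lowest of the iPSC, D0 and MEF scores, each over its library median, 5 of the 10 highest regions had high input (near Pgk2, 9230019H11Rik, Ezh2 and Axin2, and in Filip1l). The others included those at Atxn2l, Mogs (a glycan-trimming glucosidase), Atp8b2 and Phldb1. The Phldb1 region scored 16.9 per kb in D0, 16.2 in MEF, 15.5 in D16S+, 19.1 in D16S- and 12.7 in iPSCs, and had a peak in cKit+ (9.23) and none in cKit-. The highest H3K4me3 scores in iPSCs were at regions named for Ezh2 (580, high input), Snx5 (484), Hnrnpa2b1 (418), Serbp1 (410) and Rbm14 (401).

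The exceptions in the other lists were few. The epithelial list gave 1 region, in Epcam, a surface adhesion molecule of epithelial and pluripotent cells, with 14.8 per kb in D0, 11.8 in MEF and 11.3 in iPSCs and an ESD3 peak 428 bp away. Epcam was covered over 6.46% in D0 and 55.4% in iPSCs. The pluripotency list gave regions in Klf4, Tet2 and Jarid2. The Klf4 region lay in an exon, 413 bp from an ESD3 peak, with an input density 2.19 times the list median, and the cells had received retroviral Klf4, whose sequence cannot be told apart from that of the gene's exons. Hematopoietic genes with a region were Runx1, Itga2b and Zfpm1, none of whose 4 regions had a cKit+ peak. Jun, a core AP-1 gene without an ESD3 peak, held 1 region of 500 bp with 16.5 per kb in D0, 16.3 in D12S-, 14.4 in D16S+ and 11.2 in iPSCs.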

How the data were processed

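ChIP-Seq peak lists of 30 libraries were used, 16 for H3.3 and 7 each for H3K4me3 and H3K36me3. Per the methods of the study, reads were mapped to mm9 with STAR, reads with more than 2 mismatches or with several loci were removed, and HOMER findPeaks (histone style) called peaks on single libraries, with an input as control. Versions are not given in the sources used here. Scores, as deposited, are a signal, the tag count of a peak scaled by the authors to a common library size given in the headers. The authors' fold of a peak against input, a ratio, was at least 2 for H3.3 and 4 for the marks. The Poisson p-value was computed by the authors, with a limit of 0.0001 per the file headers, and was not used here.

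Overlaps were computed with Python 3.11.15, NumPy 2.4.6 and pandas 2.3.3, and the overlap code was tested on simulated intervals. Intervals for shares are Wilson intervals from SciPy 1.17.1, and figures were drawn with matplotlib 3.10.9. Peaks were placed by their midpoint on the 22238 protein-coding genes of GENCODE vM1 (NCBIM37), first as promoter, then as transcript end (100 bp before to 1000 bp after), exon, intron or between genes. The 16 input libraries were not analysed on their own. The regions and the gene lists were chosen with earlier results of these data known. Coverage is the percent of a gene body under peaks. Score per kb is the score over peak length, for the best overlapping peak. Motifs were searched in 500 bp windows on both strands.

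Named were the 10 regions highest by the lowest score among iPSC, D0 and MEF (each over its library median), the 10 with the highest iPSC score among those in all 5 libraries from D3 to D16S+, genes with 3 or more regions and no ESD3 peak within 1 kb, the 5 regions of highest iPSC H3K4me3 score, up to 4 genes a list by iPSC score, and the 5 regions of highest iPSC score with a cKit+ peak. Regions were named by the gene holding the midpoint, otherwise by the nearest start site. Other genes were named after their values were seen, and some that the rule names are not reported here. Alternatives are given in the closing section. Since each group was 1 library, no test was run.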

Additional observations from a re-analysis of the deposited data

Results flagged for a closer look

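The input library was not a readout of the comparisons, and it set 8 of the 6283 ESD3-absent regions apart: their input tags per kb in iPSCs were more than 5 times the median of the list. All iPSC peaks showed this at 0.159% and the ESD3-absent regions at 0.127%. The region near Pgk2 (chr17:39979761-39983438) had 54.5 times the median input density in iPSCs, 48.9 times in D0 and 47.4 times in MEF, and the highest iPSC score of all ESD3-absent regions (1595). The others were named for 9230019H11Rik, Ezh2, Axin2, Filip1l, H60b, Pdia4 and Arhgap21, and 5 of the 8 passed the same limit in D0 and MEF as well. They held 3.69% of the summed score of the ESD3-absent regions. Without them 6275 regions were left, and the shares in D16S+ (26.8%), D16S- (66.2%) and iPSC H3K4me3 (43%) kept their values. The cause of the high input was not tested.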

How the results depend on the processing

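No paired analysis was possible because every group held 1 library. The values below are, in order, the number of ESD3-absent regions, their ratio to the mirror set, and their shares in D16S+ H3.3, D16S- H3.3, iPSC H3K4me3 and iPSC H3K36me3, where they left the interval of the value reported (6283, 3.13, 26.8%, 66.2%, 43% and 12%) or, for counts and ratios, a range of 1.5 times. With 34062 top-scoring peaks per H3.3 library they were 2447, 1.68, 45.4%, 72.6%, 60.7% and 16.7%. With 34062 peaks by score per kb they were 1718, 1.1, 45.8%, 63.6%, 61% and 11.2%. With at least 0.5 of the iPSC peak on D0 and MEF, the number was 3241 and the shares 24.4%, 68.7%, 36.5% and 9.87%. With no ESD3 peak within 1 kb only the D16S- share moved, to 64.3%. With none within 10 kb, the number was 1448 and the shares 22.8%, 60.8%, 45.9% and 6.7%. With a fold of at least 4 in iPSCs, D0 and MEF and the whole ESD3 list, they were 12, 0.108, 16.7%, 50%, 33.3% and 0%. This limit ends the excess over the mirror set, but by its construction it removes iPSC peaks and not ESD3 peaks, and 12 regions carry no share. With iPSC peaks of 500 bp only, they were 1635, 1.49, 12%, 53.2%, 21.3% and 7.71%. With D0 alone needed, the number was 15719 and the shares 20.3%, 52.4%, 32.2% and 13.8%. Autosomes alone, and leaving out the regions of high input (chosen after seeing the data), moved none of these. In each of these alternatives the D16S- share stayed above the D16S+ share. Giving regions to the nearest start site, a 200 bp motif window and peaks of at most 1000 bp left the count of genes and the AP-1 ratio within 1.5 times, and counting any 1 bp overlap with a gene moved 1 of 12 list counts by more. With 1 library per group no replicate could be left out, the spread between replicates is unknown, and lists of unequal depth were compared.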

Other observations

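The mirror set, with no iPSC peak, was also found less often in the late SSEA-1+ lists. Of its 2005 regions, 64% had an H3.3 peak at D3, 34.4% at D12S+ and 15.9% at D16S+, against 74.8% at D12S- and 58.2% at D16S-. The mirror set was chosen for having no iPSC peak, so low shares in iPSCs and in cells close to them are partly given by the choice. The SSEA-1+ lists were also the shorter ones (45922 peaks in D12S+ and 34062 in D16S+), and the same shares over all ESD3 peaks are not given here. In D0, H3K4me3 lay on 38% of the mirror set, against 56.6% of the ESD3-absent regions, and in iPSCs on 13.8% against 43%. Fewer of its regions were at promoters (7.53% against 16.4%). Genes with a mirror region numbered 1079 (4.85% of all). In contractile genes 13 of 34 held a mirror region and 23 of 34 an ESD3-absent one, in matrix genes 6 and 13 of 37, and in TGF-beta and BMP genes 9 and 9 of 36. Over all genes 12.4% held an ESD3-absent region. The genes of these lists were longer, with medians of 28.8, 38.5 and 38.9 kb against 15.4 kb over all genes, and the counts were not adjusted for length. The median length of the mirror set was 500 bp, against 889 bp.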
